A study of Mus musculus with 4 samples.

Results

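The genes described here are 6 that encode histone H3 lysine 4 (H3K4) methyltransferases (Kmt2a, Kmt2b, Kmt2c, Kmt2d, Setd1a and Setd1b) and 3 that encode partners of the MLL3 and MLL4 complexes (Ncoa6, Paxip1 and Pagr1a). These 9 genes were chosen by symbol from the 32285 genes of the count tables. The rule uses no measured value, but it was written with earlier results of these data known. Their levels were followed across 4 libraries of mouse bone marrow cells, across cell classes defined by marker genes, and across the clusters within one class. The cells were CD45.2+Kit+ bone marrow cells taken 10 weeks after transplantation, in which RNA and barcoded antibodies had been counted together. Kit, the receptor of stem cell factor, marks stem and progenitor cells of the blood. CD45.2 is an allelic form of CD45, by which grafted cells can be told from those of a host. The titles name 4 groups with 1 library each: control, Mll3SI, Mll4SI and Mll3/4SI. The labels call the libraries wt, mll3KI, mll4KI and dKI, and spell out neither SI nor the strain, sex, number of animals or host. By the title of the series, the question was what MLL3 and MLL4 do in blood stem and myeloid cells apart from enzymatic functions of their complexes.

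Methylation of H3K4 marks active genes, and the enzymes that write it sit in large assemblies of the COMPASS family around a shared core of WDR5, RBBP5, ASH2L and DPY30. MLL3 (Kmt2c) and MLL4 (Kmt2d) act mainly at enhancers, where they place the monomethyl mark, and their complexes also hold NCOA6, PTIP (Paxip1), PA1 (Pagr1a) and the demethylase UTX (Kdm6a). MLL1 (Kmt2a) and MLL2 (Kmt2b) work at subsets of promoters, and SETD1A and SETD1B place much of the trimethyl mark at active promoters. In blood, Kmt2a is known for the upkeep of stem cells and for its fusions in leukaemia, and KMT2C and KMT2D are often mutated in blood cancers.

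On GRCm38, Kmt2c (ENSMUSG00000038056) lies on the minus strand of chromosome 5 from 25271798 to 25498783. Kmt2d (ENSMUSG00000048154) lies on the minus strand of chromosome 15 from 98831669 to 98871204. Kmt2a is on chromosome 9 (44803355 to 44881296), Kmt2b on chromosome 7 (30568858 to 30588726) and Ncoa6 on chromosome 2 (155390656 to 155473894). Paxip1 (27740080 to 27791691) and Setd1b (123142193 to 123168629) are on chromosome 5, and Setd1a (127776670 to 127800122) and Pagr1a (127015033 to 127017352) on chromosome 7. Pagr1a overlaps another gene of the count tables, Gm42742, on the same strand, so its few reads may be split or dropped. The sequences below are the promoters of the pair of genes that the group names point to, shown because their levels carry the comparisons that follow. Each is the run of 250 bases before the RefSeq start, 5′ to 3′ on the strand of the gene, with every CG dinucleotide in capitals (RefSeq, GRCm38.p6).
Kmt2c, chr5:25498784-25499033, minus strand: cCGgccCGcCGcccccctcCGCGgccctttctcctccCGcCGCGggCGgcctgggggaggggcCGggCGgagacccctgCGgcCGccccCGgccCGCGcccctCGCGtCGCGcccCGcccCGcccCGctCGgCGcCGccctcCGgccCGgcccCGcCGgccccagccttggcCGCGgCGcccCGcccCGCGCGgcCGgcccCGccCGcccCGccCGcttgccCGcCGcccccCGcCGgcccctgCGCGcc
Kmt2d, chr15:98871206-98871455, minus strand: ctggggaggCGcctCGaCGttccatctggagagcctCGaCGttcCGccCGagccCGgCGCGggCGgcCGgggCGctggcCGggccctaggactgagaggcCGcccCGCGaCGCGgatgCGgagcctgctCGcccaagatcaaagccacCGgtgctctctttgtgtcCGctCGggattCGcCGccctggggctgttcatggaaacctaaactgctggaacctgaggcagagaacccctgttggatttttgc
The Kmt2c window was 91.6% G or C and held 48 CG dinucleotides, a number reached by 0.186% of 32817 such windows. In the Kmt2d window 67.6% of bases were G or C, with 26 CG dinucleotides, reached by 9.60% of windows. CG reads the same on both strands and cannot overlap itself, and 92.1% of all windows held at least 1 (median 6). Of the other members matched, Kmt2a had 29, Setd1a 25, Paxip1 22, Pagr1a 8 and Ncoa6 1, and 7 of the 9 members had a window in all. The windows of Ncoa6 (155440784 to 155441033) and Setd1a (127777139 to 127777388) lie inside the gene spans given above. Their counts are therefore not those of the bases before the 5′ end of the span.

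After filters on genes, unique molecular identifiers (UMIs) and mitochondrial share, and removal of the highest doublet scores, 6743 control, 8023 Mll3SI, 10186 Mll4SI and 6755 Mll3/4SI cells were kept, with a median of 12799.5 to 19172 gene UMIs per cell and 123523143 to 146739550 gene UMIs per library. With 1 library per group there is no replicate check: brackets below are 95% intervals that cover counting error only, no difference was tested, and each comparison uses the same control library. Kit stood at 112, 100.3, 100.9 and 109 CPM (UMIs of a gene for every 1000000 gene UMIs counted) in the libraries in the order control, Mll3SI, Mll4SI and Mll3/4SI, and Ptprc, which encodes CD45, at 222, 179, 313 and 211. Xist, the transcript of the inactive X chromosome, was at 1149 CPM in Mll4SI and 1358 in Mll3/4SI against 0.0315 in control and 0.194 in Mll3SI, and the Y-linked Eif2s3y was at 0 in the first pair and at 63.4 and 61.9 CPM in the second. In the Mll4SI and Mll3/4SI comparisons the label therefore cannot be told apart from the sex of the cells. Joint clustering gave 8 clusters with over 80% of their cells from a single library (0, 2 and 18 from Mll4SI, and 9, 14, 15, 17 and 22 from Mll3/4SI), which held 58.8% of Mll4SI and 62.4% of Mll3/4SI cells but 0.653% of control and 0.673% of Mll3SI cells. Among kept cells, 88 barcodes occurred in 2 libraries and 2 in 3, and leaving them out moved no value of a member beyond its interval.

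Kmt2c, the gene of MLL3, was at 129.5 CPM [127.5, 131.5] in control, 110.2 [108.4, 112.1] for Mll3SI, 147.5 [145.6, 149.5] for Mll4SI and 123.2 [121.3, 125.0] for Mll3/4SI. Mll4SI was the highest of the libraries and Mll3SI the lowest. With 13615 to 21648 Kmt2c UMIs per library the intervals are narrow. How many of all genes separate in this way was not computed. On the log2 scale Mll3SI stood at -0.23 [-0.27, -0.20] relative to control, Mll4SI at 0.19 [0.16, 0.22] and Mll3/4SI at -0.07 [-0.10, -0.04]. The higher value in Mll4SI moved with the scaling and the cells counted. It was 0.31 with median-of-ratios scaling and 0.08 when clusters present in both libraries were weighted as in control. Without the clusters drawn mostly from a single library it was -0.07. That removal took out 58.8% of Mll4SI but 0.653% of control cells, so the cells left differ in their mix of clusters. In Mll3SI the ratio was -0.11 when shared clusters were weighted as in control.

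Kmt2d, the gene of MLL4, was at 41.5 CPM [40.3, 42.6] in control, 38.0 [36.9, 39.1] for Mll3SI, 35.0 [34.0, 35.9] for Mll4SI and 33.3 [32.4, 34.3] for Mll3/4SI. Control was the highest of the libraries, and Mll4SI and Mll3/4SI were the lowest with overlapping intervals. Its log2 ratio to control was -0.13 [-0.18, -0.07] for Mll3SI, -0.25 [-0.30, -0.19] for Mll4SI and -0.31 [-0.37, -0.26] for Mll3/4SI, below 0 in all 3 comparisons and under each of the 14 alternatives run for each. Its size did depend on them: in Mll3/4SI it was -0.13 with shared clusters weighted as in control, and in Mll4SI -0.43 by that weighting and -0.13 with median-of-ratios scaling. These 3′ counts are totals of the gene and do not read the alteration that SI stands for.

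Ncoa6, which encodes a coactivator subunit of both complexes, was at 54.3 CPM in control, 51.9 for Mll3SI, 60.02 for Mll4SI and 51.3 for Mll3/4SI. As for Kmt2c, Mll4SI was the highest library, with a log2 ratio of 0.14 [0.10, 0.19]. The value without clusters mostly from a single library was -0.18, after the same unequal removal of cells. Paxip1, whose product PTIP also acts in DNA repair and class switching, was at 37.6, 38.1, 34.6 and 32.3 CPM in control, Mll3SI, Mll4SI and Mll3/4SI. Its ratio was -0.22 [-0.28, -0.16] in Mll3/4SI, where it was below 0 under all 14 alternatives, and 0.02 [-0.04, 0.07] in Mll3SI. Pagr1a, the gene of the small partner of PTIP, was barely counted: 84, 101, 96 and 126 UMIs in the libraries, or 0.661, 0.818, 0.654 and 0.888 CPM. Its ratios of 0.31 [-0.13, 0.74], -0.02 [-0.45, 0.42] and 0.42 [0.01, 0.84] are therefore wide, and with 1 CPM added to both levels none passed 0.25.

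Among the other methyltransferases, Kmt2a was at 96.8 CPM [95.1, 98.5] in control, 88.9 [87.3, 90.6] for Mll3SI, 87.2 [85.7, 88.7] for Mll4SI and 81.7 [80.2, 83.2] for Mll3/4SI. Control was again the highest and Mll3/4SI the lowest, with log2 ratios of -0.12, -0.15 and -0.24 [-0.28, -0.21] in the order of the groups. The Mll3/4SI ratio of Kmt2a was -0.10 with shared clusters weighted as in control. Its paralog Kmt2b varied little, at 28.3, 25.5, 27.9 and 27.4 CPM, and only its Mll3SI interval, at -0.15 [-0.22, -0.08], lay apart from 0. Setd1a stood at 19.98, 19.7, 17.5 and 18.95 CPM, lowest in Mll4SI at a ratio of -0.19 [-0.27, -0.12]. Setd1b stood at 57.8, 54.5, 61.8 and 47.9 CPM, highest in Mll4SI (0.10 [0.05, 0.14]) and lowest in Mll3/4SI (-0.27 [-0.32, -0.22]). Without clusters mostly from a single library, the Mll4SI ratio was 0.04 for Setd1a and -0.17 for Setd1b, so both turned sign, while the Mll3/4SI ratio of Setd1b was -0.31. That removal took out 58.8% of Mll4SI and 62.4% of Mll3/4SI cells but 0.653% of control cells. The sets compared therefore differ in their mix of clusters, and the part of that mix in these values was not tested.

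**Figure D1:**
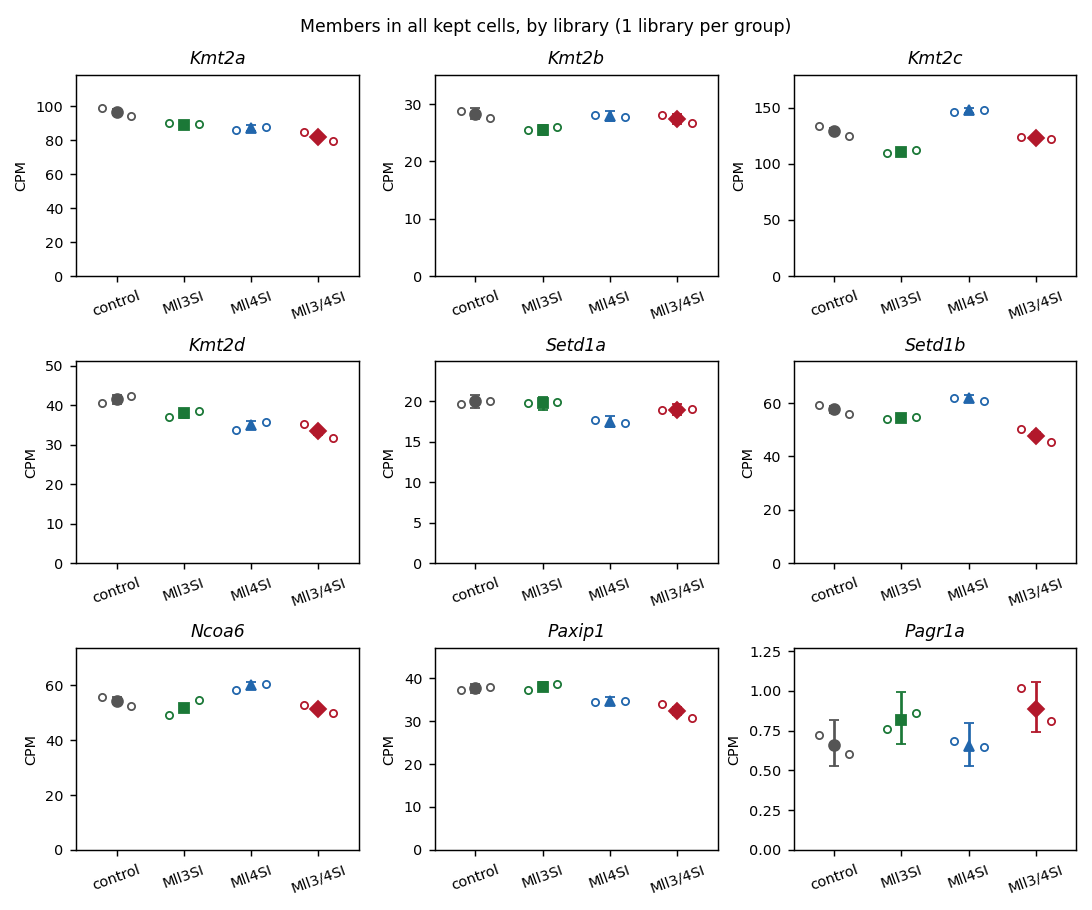
Level of each of the 9 genes in each library, in CPM of summed UMIs over all kept cells (y axis, from 0, scaled per gene), with exact Poisson 95% intervals. Open circles give cells with only Hashtag1 (left) or only Hashtag2 (right); Kmt2c ran from 110.2 CPM in Mll3SI to 147.5 in Mll4SI, and Kmt2d from 41.5 in control to 33.3 in Mll3/4SI.

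In place of a test, a log2 ratio of at least 0.25 in size was counted as a difference and read against all genes with a mean of at least 10 CPM over the 2 libraries compared. Pagr1a, under 10 CPM, is not one of those genes, so counts without it are the like-for-like ones. In Mll3SI 1 member was higher by this measure (Pagr1a), 0 of the 8 others were higher and none lower, where 4.11% of 8198 genes were higher and 4.92% lower. In Mll4SI no member passed in either direction, although 9.71% of 8105 genes were higher and 28.9% lower, and Kmt2d stood just inside the limit. In Mll3/4SI 1 member was higher (Pagr1a), and of the 8 others 0 were higher and 2 lower (Kmt2d and Setd1b), where 7.15% of 8221 genes were higher and 12.6% lower. Over the 8 members above 10 CPM the median ratio was -0.10, -0.07 and -0.15 in Mll3SI, Mll4SI and Mll3/4SI, beside -0.01, -0.12 and -0.07 over all genes. Median-of-ratios scaling moved every Mll4SI ratio up by 0.12, and the share of genes past the limit that were higher went from 25.2% to 52.5% in Mll4SI and from 36.2% to 55.4% in Mll3/4SI. With that scaling Kmt2c (0.31) and Ncoa6 (0.26) passed the limit in Mll4SI, where 17.64% of all genes were higher and 15.99% lower. No member was then lower by 0.25 in Mll3/4SI, where Kmt2d was at -0.25 just inside the limit. Over all genes 9.72% were higher and 7.82% lower in Mll3/4SI with the same scaling.

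**Figure D2:**
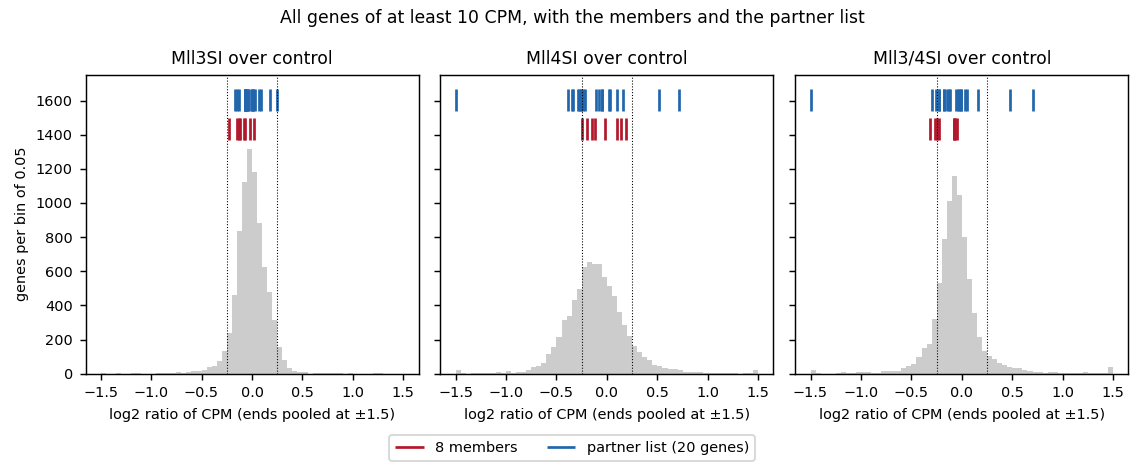
Distribution of log2 CPM ratios to control over all genes of at least 10 CPM (number of genes per bin of 0.05; ratios beyond 1.5 in size are pooled in the end bins), 1 panel per comparison, with ticks for the 8 members above 10 CPM and the 20 partner genes and dotted lines at 0.25 in size. The members lie between -0.31 and 0.19, within the main body of genes in each panel.

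Each library held cells carrying either of a pair of hashtag antibodies, whose meaning the labels do not give. Cells with only Hashtag1 and cells with only Hashtag2 were compared within each library. No member above 10 CPM differed by 0.25 between them. Over all genes, 1.05% were higher and 1.97% lower in Hashtag2 cells of the control library. Those shares were 2.04% and 2.21% for Mll3SI, 0.427% and 4.57% for Mll4SI, and 8.11% and 5.78% for Mll3/4SI. The widest gaps were 0.16 for Ncoa6 in Mll3SI and -0.16 for Kmt2d, -0.15 for Setd1b and -0.14 for Paxip1 in Mll3/4SI. The ratio of Kmt2d to control was -0.28 in Hashtag1 and -0.25 in Hashtag2 cells of Mll4SI, and -0.21 and -0.42 in those of Mll3/4SI. For Kmt2c it was -0.29 and -0.16 in Mll3SI and 0.12 and 0.25 in Mll4SI, and for Setd1b -0.23 and -0.30 in Mll3/4SI. Each of these ratios had the same sign in both sets of cells of its library.

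The share of cells with at least 1 UMI gave the same order for the MLL3 and MLL4 genes. After every cell was thinned to 3000 UMIs, which left out 118 to 226 shallower cells per library, Kmt2c was seen in 33.2%, 28.3%, 36.9% and 31.2% of cells in control, Mll3SI, Mll4SI and Mll3/4SI. Kmt2d was seen in 12.3%, 11.1%, 9.83% and 9.62% of cells, and Setd1b in 16.8%, 15.7%, 18.8% and 13.1%. Unthinned, Kmt2c was seen in 84.1%, 74.1%, 79.2% and 84.9% of cells and Kmt2d in 50.7%, 41.9%, 37.3% and 46.3%, with library depth differing as given above. No class is known to lack these transcripts, so no background share exists to set beside them.

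Levels by cell class showed where each gene is read most. Classes were named from marker genes: granulocyte-like cells made up 64.9%, 66.8%, 78.3% and 73.9% of the kept cells in control, Mll3SI, Mll4SI and Mll3/4SI, and cells with stem and multipotent progenitor markers (HSC/MPP-like) 9.05%, 8.0%, 4.47% and 3.39%. Kit was at 223, 204, 248 and 206 CPM in HSC/MPP-like cells, and at 72.7, 71.6, 71.4 and 79.96 in granulocyte-like cells. In HSC/MPP-like cells 10 of the 12 stem-cell markers reached 10 CPM in every library, beside 8, 8, 7 and 7 over all kept cells. The class was named from these markers, so this count describes it and is not a check of the name.

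Kmt2a was lowest in the granulocyte-like and monocyte-like classes. In control it was at 148 CPM in erythroid-like, 147 in HSC/MPP-like, 128 in basophil/mast-like and 123 in B-lymphoid-like cells, against 84.0 in monocyte-like and 83.9 in granulocyte-like cells. Neighbours within the first 4 classes overlapped in their intervals, as did the last pair. Its HSC/MPP-like level was 1.75 times the granulocyte-like level in control [1.66, 1.84], 1.90 times in Mll3SI, 1.68 times in Mll4SI and 1.62 times in Mll3/4SI. Kmt2d was highest in granulocyte-like cells of control, Mll4SI and Mll3/4SI. In Mll3SI it was highest in basophil/mast-like cells, at 42.6 against 40.8 CPM in granulocyte-like cells, with overlapping intervals. In control it was at 45.8 CPM in granulocyte-like, 39.4 in basophil/mast-like, 38.0 in monocyte-like, 32.0 in HSC/MPP-like, 26.3 in erythroid-like and 23.1 in B-lymphoid-like cells. The granulocyte-like and basophil/mast-like intervals overlapped there too. Its HSC/MPP-like over granulocyte-like ratio was 0.699 [0.628, 0.776] in control, 0.693 for Mll3SI, 0.768 for Mll4SI and 0.652 for Mll3/4SI, below 1 in each of the 4 libraries.

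Kmt2c was high in HSC/MPP-like and basophil/mast-like cells and lowest in monocyte-like cells of the control. In control it was at 159 CPM in both HSC/MPP-like and basophil/mast-like cells, 146 in erythroid-like, 132 in granulocyte-like, 102 in B-lymphoid-like and 89.5 in monocyte-like cells. Its HSC/MPP-like level was 1.2 times the granulocyte-like one in control, 1.40 times in Mll3SI, 1.06 times in Mll4SI and 1.10 times in Mll3/4SI. Setd1b and Ncoa6 were highest in granulocyte-like cells of the control, at 64.7 and 60.8 CPM, against 43.1 and 37.5 in monocyte-like cells. Setd1a was highest in erythroid-like (28.8 CPM) and HSC/MPP-like cells (26.0) and lower in granulocyte-like (17.1) and basophil/mast-like cells (16.9). Paxip1 ranged only from 34.8 CPM in basophil/mast-like to 44.5 in B-lymphoid-like cells of the control, with all neighbours overlapping, as they did for Kmt2b.

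**Figure D3:**
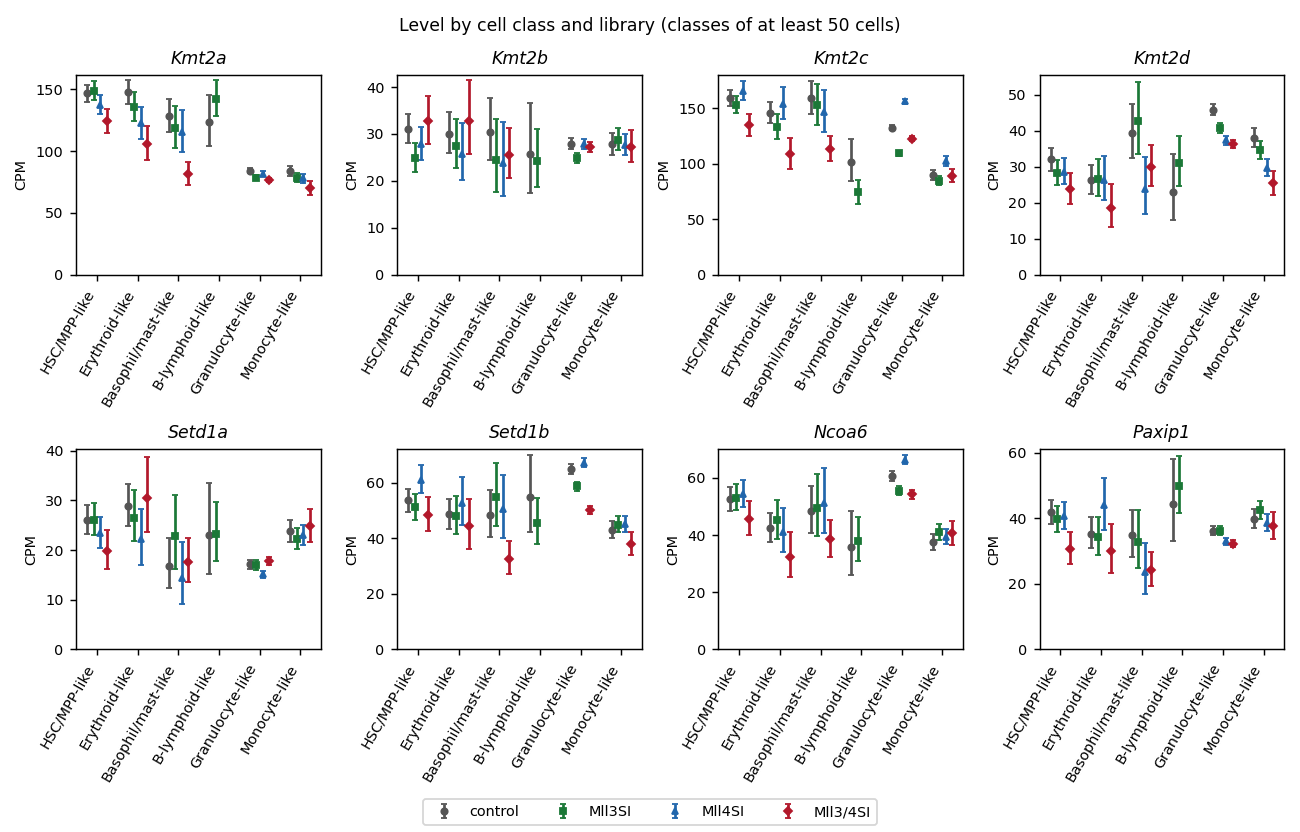
Level of 8 of the genes (Pagr1a left out) in each cell class with at least 50 cells, in CPM of summed UMIs with exact Poisson 95% intervals (y axis), by class (x axis) and library (marker and colour). Kmt2a stands at 147 CPM in HSC/MPP-like and 83.9 in granulocyte-like cells of the control, and Kmt2d at 32.0 and 45.8.

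Within granulocyte-like cells Kmt2d was at 45.8, 40.8, 37.3 and 36.3 CPM in control, Mll3SI, Mll4SI and Mll3/4SI, with ratios to control of -0.17, -0.29 and -0.33. Kmt2c was at 132, 109, 156 and 123 CPM, with ratios of -0.28, 0.24 and -0.11. Setd1b was at 64.7, 58.7, 67.1 and 50.1 CPM, with -0.37 in Mll3/4SI. Members past 0.25 were, higher and lower, 1 (Pagr1a) and 1 (Kmt2c) in Mll3SI, 0 and 1 (Kmt2d) in Mll4SI, and 1 (Pagr1a) and 2 (Kmt2d and Setd1b) in Mll3/4SI. Without Pagr1a 0 of 8 were higher in any of the 3 comparisons. Over all genes in these cells 12.5% were higher and 6.7% lower for Mll3SI, 10.5% and 30.7% for Mll4SI, and 13.1% and 11.5% for Mll3/4SI. The clusters that hold most of this class differ between the libraries (1, 3 and 4 in control against 0 and 2 in Mll4SI and clusters 9, 14 and 15 in Mll3/4SI), and no weighting of clusters was run within the class. Other markers moved in it as well. Basophil and mast cell markers summed to 114, 106, 75.7 and 260 CPM in control, Mll3SI, Mll4SI and Mll3/4SI, with 2 of 8 at 10 CPM or more in each library. Stem-cell markers summed to 104, 116, 78.8 and 236 CPM, with 4, 5, 3 and 5 of 12 at 10 CPM, and granulocyte markers to 226953, 198023, 280161 and 230044, with 16 of 16. Their part in the ratios was not tested.

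HSC/MPP-like cells numbered 610, 642, 455 and 229 in the libraries and came from clusters 7 and 23. Cluster 23 was led by Pf4, a megakaryocyte gene, and had 5 megakaryocyte markers beside 7 stem-cell markers. Paxip1 was at 42.0, 39.7, 40.8 and 30.5 CPM, with a Mll3/4SI ratio of -0.46 [-0.73, -0.20]. Kmt2d was at 32.0, 28.3, 28.7 and 23.7 CPM, with -0.44 [-0.74, -0.14]. Setd1a was at 26.0, 26.0, 23.4 and 19.8 CPM, with -0.39 [-0.73, -0.07]. Kmt2c and Kmt2a were both at -0.24 there, with intervals below 0. Ncoa6 at -0.20, Setd1b at -0.15 and Kmt2b at 0.07 had intervals that included 0. In cluster 7 alone the ratios were -0.44 for Kmt2d, -0.42 for Setd1a, -0.33 for Paxip1 and -0.29 for Kmt2c. Members past 0.25 numbered 4 lower in Mll3/4SI (Kmt2d, Setd1a, Paxip1 and Pagr1a) and none higher, where 7.86% of genes were higher and 14.2% lower. In Mll3SI 2 were lower (Kmt2b at -0.32, and Pagr1a) and none higher, beside 6.53% and 6.86% of genes higher and lower. In Mll4SI 1 was lower (Pagr1a) and none higher, beside 11.9% and 10.3%. Pagr1a rested on 15, 6, 2 and 3 UMIs in these cells, with an interval from -3.49 to 0.76 in Mll3/4SI. Without it, 3 of 8 members were lower in Mll3/4SI, 1 in Mll3SI and 0 in Mll4SI.

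Markers of other cells moved within the HSC/MPP-like class. The 16 granulocyte markers summed to 3986, 3492, 13269 and 3065 CPM in control, Mll3SI, Mll4SI and Mll3/4SI, with 12, 12, 15 and 12 of them at 10 CPM or more. Basophil and mast cell markers summed to 164, 69.9, 477 and 274 CPM and erythroid markers to 361, 375, 266 and 178, and the stem-cell markers to 3734, 4041, 4185 and 3499. Their part in the ratios was not tested. A further 690 Mll3/4SI cells lay in cluster 17, which carried both stem-cell and basophil/mast markers and was left unnamed. Kmt2a there was at 98.3 CPM, Kmt2c at 148 and Kmt2d at 23.9. Counting cluster 17 in, a choice made after its values were seen, moved the HSC/MPP-like Mll3/4SI ratio of Kmt2a from -0.24 to -0.48, left Kmt2d at -0.43 and Paxip1 at -0.41, and gave -0.30 for Setd1a.

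In the smaller classes Kmt2d was lower than control in Mll3/4SI too, at 25.4 against 38.0 CPM in monocyte-like cells (-0.58 [-0.80, -0.37]), 29.9 against 39.4 in basophil/mast-like cells and 18.5 against 26.3 in erythroid-like cells. In Mll4SI it was at 29.7 CPM in monocyte-like cells (-0.36) and at 23.7 in basophil/mast-like cells, but at 26.4 in erythroid-like cells, equal to control within counting error. Kmt2a in Mll3/4SI was at 81.4 CPM in basophil/mast-like cells against 128 in control (-0.65 [-0.88, -0.43]) and at 106 against 148 in erythroid-like cells (-0.48 [-0.69, -0.27]). Kmt2c there was at 113 against 159 and at 108 against 146 CPM in the same classes, and in monocyte-like cells at 89.2 against 89.5. The median Mll3/4SI ratio of the 8 members above 10 CPM was -0.45 in basophil/mast-like, -0.31 in erythroid-like and -0.06 in monocyte-like cells. Over all genes it was -0.11, -0.07 and -0.04. At Leiden resolution 2 the basophil/mast-like cluster held 55 Mll3/4SI cells, against 162 here. An unnamed cluster led by Cpa3 and Fcer1a, with Ms4a3 and Mpo, held 421. The part of this mix in the ratios was not tested.

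**Figure D4:**
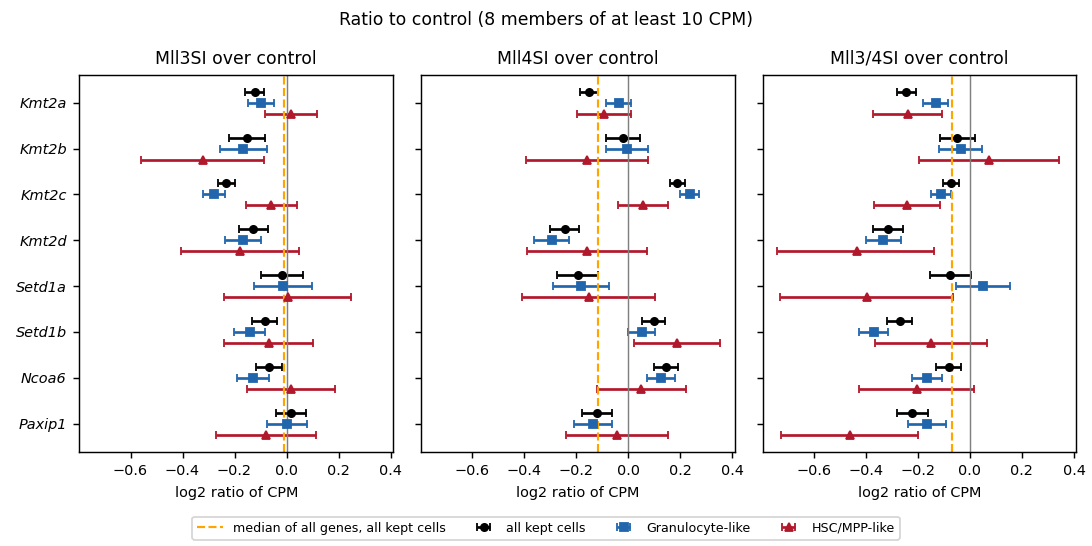
Log2 ratio of CPM to control with exact 95% counting intervals (x axis) for 8 of the genes (y axis; Pagr1a left out), 1 panel per comparison, over all kept cells (black circles), granulocyte-like cells (blue squares) and HSC/MPP-like cells (red triangles); the dashed line is the median of all genes. Kmt2d lies below 0 in all 3 panels and all 3 sets of cells, from -0.13 to -0.44.

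Granulocyte-like cells fell into 9 clusters with at least 50 control cells, and the members were far from level across them. Ordered by control Ltf, which encodes the secondary-granule protein lactoferrin, the clusters were 4, 6, 10, 8, 3, 1, 13, 21 and 19, from 25.7 to 10032 CPM. Clusters 4 and 6 led with Elane, Ctsg, Prtn3 and Mpo, genes of primary granules and early granulopoiesis, cluster 1 with Abca13, Ly6g and Ltf, cluster 13 with the mitotic genes Ube2c and Cenpf, and cluster 19 with Mmp8, Retnlg and Mmp9 of late neutrophils. In that order Kmt2c in control was at 80.8, 72.5, 105, 123, 161.5, 182, 127, 136 and 242 CPM. It was lowest in the primary-granule clusters and highest in cluster 19. Cluster 19 also stood apart in depth and nuclear RNA: in control its cells had a median of 6474 UMIs against 15489 in cluster 1, with Malat1 at 6632 against 3868 CPM and Neat1 at 416 against 117. Their part in its levels was not tested.

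Between cluster 4 and cluster 1, Kmt2c was 2.25 times as high in the latter in control [2.11, 2.40], 2.35 times in Mll3SI and 2.69 times in Mll3/4SI. For Ncoa6 the same step was 2.14, 2.21 and 1.78 times, for Setd1b 1.92, 1.66 and 1.71 times and for Kmt2d 1.77, 1.66 and 1.83 times. Kmt2a was only 1.13, 1.13 and 1.21 times as high. Setd1a went the other way, at 0.620, 0.714 and 0.392 times. The Mll3/4SI steps rest on 62 cells of cluster 1, against 1301 in control and 1352 in Mll3SI, and are less firm. In Mll4SI cluster 1 held too few cells, and the step from cluster 4 to cluster 19 was 2.75 times for Kmt2c and 2.45 times for Setd1b, beside 3.0 and 2.37 times in control.

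In control, Paxip1 and Setd1a were lowest in the last 3 clusters of the Ltf order. Paxip1 in control was at 33.4, 24.9, 33.4, 57.0, 60.5, 37.3, 12.0, 6.81 and 6.85 CPM along the 9 clusters, highest in clusters 8 and 3 and lowest in the last 3. Cluster 3, whose leading genes include Hist1h1b and Rrm2 of DNA synthesis, had 1.81 times the Paxip1 of cluster 4 in control, 1.88 times in Mll3SI, 2.41 times in Mll4SI and 1.94 times in Mll3/4SI. Cluster 13 was at 12.0 CPM in control, 11.4 in Mll3SI and 10.1 in Mll3/4SI. Setd1a in control was at 24.4, 18.2, 11.5, 11.9, 22.4, 15.1, 8.07, 5.54 and 2.28 CPM, the last from 1 UMI in 69 cells. In Mll4SI, cluster 19 had 0.218 times the Paxip1 and 0.350 times the Setd1a of cluster 4. In Mll3/4SI, cluster 21 (122 cells) stood above control cluster 21, at log2 ratios of 1.18 for Paxip1 and 1.48 for Setd1a.

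**Figure D5:**
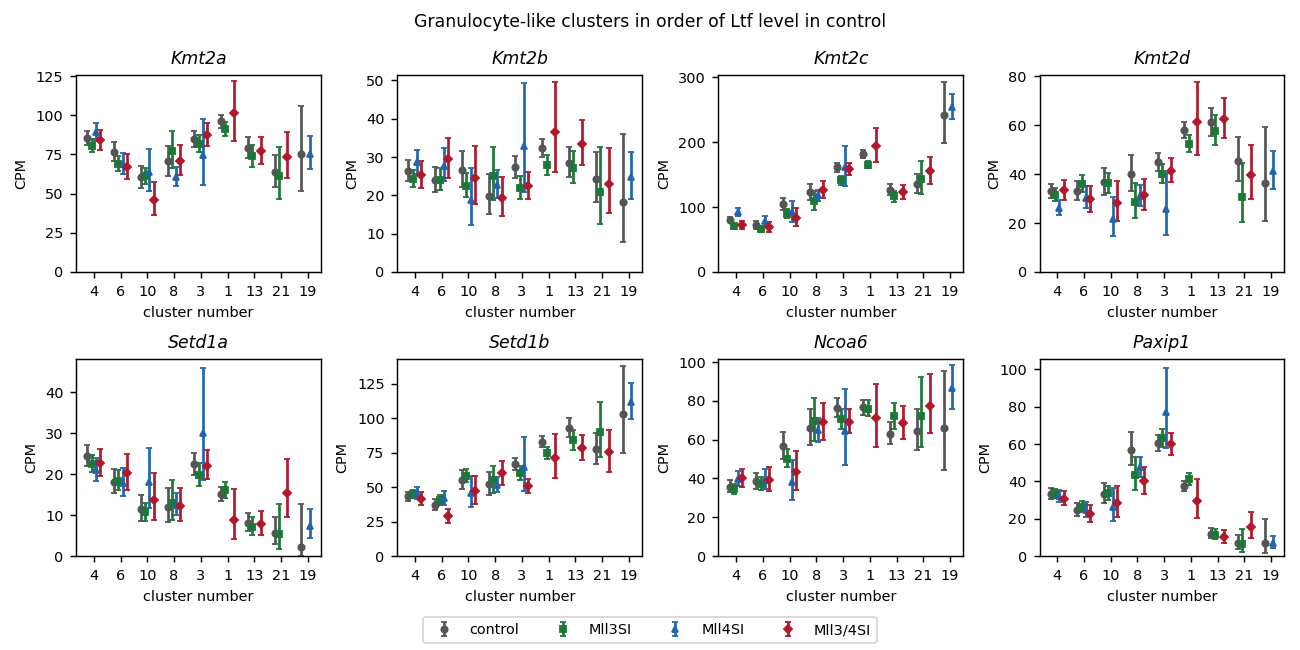
Level of 8 of the genes in the 9 granulocyte-like clusters, ordered from left to right by control Ltf (x axis), in CPM with exact Poisson 95% intervals (y axis, from 0), for each library with at least 50 cells. Kmt2c runs from 80.8 CPM in cluster 4 to 242 in cluster 19 of the control, and Paxip1 from 33.4 to 6.85 with its highest value in cluster 3.

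Clusters found almost only in a single library can be read beside shared granulocyte-like clusters with partly similar leading genes. Of the Mll4SI clusters, 0 (led by Chil3 and Hist1h2ap) had Kmt2c at 176 CPM, Kmt2d at 38.8, Ncoa6 at 74.7 and Paxip1 at 49.98. Cluster 2, led by late neutrophil genes, had Kmt2c at 183 CPM, Setd1b at 78.6, Paxip1 at 7.98 and Setd1a at 8.28, and the mitotic cluster 18 had Kmt2c at 135, Paxip1 at 9.69 and Setd1a at 9.59. In Mll3/4SI, cluster 9 had Kmt2c at 103 CPM and Kmt2d at 29.0, cluster 15 had 189 and 56.5, and cluster 22 had Kmt2c at 103 with Kmt2a at 55.5. Cluster 9 was led by Mpo, Ly6e, Ms4a6c, Cpa3 and Ms4a3, with Prtn3 and Ctsg further down. Among these, Ms4a6c is a monocyte marker and Cpa3 a basophil and mast cell marker. Cluster 9 had 1.43 times the Kmt2c [1.31, 1.57] and 0.865 times the Kmt2d [0.753, 0.996] of cluster 4 in the same library. The 2 clusters were not at an equal state, with Elane at 6180 CPM in cluster 9 and 9532 in cluster 4.

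Clusters with at least 50 cells in both libraries gave ratios within a cluster, though not at an equal state. In cluster 10 Elane was at 1181 CPM in control, 4340 in Mll4SI and 3487 in Mll3/4SI, and Ltf at 4672, 1582 and 1783, and members vary along the same axis. There were 17 with Mll3SI, 14 with Mll4SI and 15 with Mll3/4SI, and they held 98.1%, 39.5% and 34.8% of the cells of those libraries. Kmt2d was lower than control in 11 of 17, 13 of 14 and 11 of 15 clusters, with intervals wholly below 0 in 3, 7 and 4, above 0 in none, and median ratios of -0.08, -0.36 and -0.32. Kmt2c was lower in 15 of 17 in Mll3SI (6 intervals below 0, median -0.12), higher in 10 of 14 in Mll4SI (5 intervals above 0, 1 below, median 0.08) and lower in 10 of 15 in Mll3/4SI (5 intervals below 0, median -0.05). Setd1b was lower in 14 of 15 in Mll3/4SI, Paxip1 in 12 and Kmt2a in 10, with 5, 5 and 7 intervals below 0. Above 0 there was no interval for Setd1b, 1 for Paxip1 and 1 for Kmt2a. Matching counts over all genes are not given here, so whether these counts are unusual cannot be read from them. Over all kept cells the median ratio of all genes was itself below 0, at -0.12 for Mll4SI, -0.07 for Mll3/4SI and -0.01 for Mll3SI. In Mll3/4SI the clusters 4 and 1 showed no lower Kmt2d, at 33.5 against 33.0 CPM and 61.4 against 58.2, though cluster 1 held only 62 Mll3/4SI cells. The monocyte-like clusters 5 and 11 both stood at -0.58. Clusters of a library share their source and are not replicates.

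The rest of the pathway was read through 20 genes: the shared core, subunits of the MLL1, MLL2 and SETD1 complexes, Kdm6a, other SET-domain proteins and H3K4 demethylases. In Mll3SI none passed 0.25 in either direction, with Dpy30, a core subunit, nearest at 0.25 just inside the limit (187 CPM in control and 222 in Mll3SI). In Mll4SI 2 were higher and 8 lower, and in Mll3/4SI 2 were higher and 3 lower. Without Kdm5d, whose mean is under 10 CPM there, 7 and 2 of 19 were lower, beside 28.9% and 12.6% of all genes. The median over the list was -0.04, -0.16 and -0.09, near those of all genes.

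The higher pair was the same in both libraries. Kdm6a, the UTX demethylase of the MLL3 and MLL4 complexes, was at 53.4 CPM in control, 50.8 for Mll3SI, 87.2 for Mll4SI and 86.8 for Mll3/4SI. Kdm5c, a demethylase that removes the methyl groups from H3K4, was at 37.8, 34.3, 54.0 and 52.7 CPM. Both are X-linked and known to escape X inactivation, and both were high in the libraries with Xist, so group and sex cannot be told apart for them. Kdm5d, the Y-linked counterpart of Kdm5c, was at 16.1 and 15.7 CPM in control and Mll3SI, and had 3 UMIs in Mll4SI and 1 in Mll3/4SI.

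Of the core subunits, Ash2l, Wdr5 and Dpy30 were among the lower ones, where 28.9% of all genes in Mll4SI and 12.6% in Mll3/4SI were lower. Ash2l was at 44.7, 46.8, 34.2 and 42.8 CPM in control, Mll3SI, Mll4SI and Mll3/4SI (-0.39 in Mll4SI), Wdr5 at 52.8, 53.0, 43.4 and 43.0 (-0.28 and -0.30 in Mll4SI and Mll3/4SI), and Dpy30 at 187, 222, 147 and 156 (-0.34 and -0.26). Rbbp5, at 26.9, 25.9, 25.5 and 23.8 CPM, did not pass. Median-of-ratios scaling moves every ratio up by 0.12 in Mll4SI and by 0.07 in Mll3/4SI. Of the core subunits, only Ash2l in Mll4SI would then still be past the limit. The other 4 lower in Mll4SI beside Kdm5d were Psip1 (-0.33), Bod1 (-0.27), Men1 (-0.26) and Smyd3 (-0.26). In HSC/MPP-like cells the list had, higher and lower, 0 and 0 for Mll3SI, 3 and 2 for Mll4SI, and 2 and 4 for Mll3/4SI, beside the shares of all genes in that class given above.

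Across the 22 sums of a library and class with at least 50 cells, the genes whose log2(CPM + 1) was most like that of Kmt2c, among 8642 genes with a mean of at least 10 CPM, were Lonp2 (Pearson r 0.927), Efcab14 (0.911), Ptpn12 (0.892), Ripor2 (0.889) and Nudt7 (0.884). For Kmt2d they were Tmem30a (0.817), Mbd6 (0.816), Twf2 (0.805), Rnaset2b (0.802) and Morc3 (0.792). The 2 lists shared no gene, and Kmt2c and Kmt2d had r = 0.07 with each other. Ncoa6 had r = 0.63 with Kmt2c and 0.57 with Kmt2d. These sums share libraries and class marker mixes, so the values are descriptions.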

How the data were processed

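Single-cell RNA and antibody libraries of 4 groups, 1 each, were analysed. The values the authors deposited are UMI counts per gene and barcode (32285 genes, 15 antibodies), made with Cell Ranger 7.1.0 on mm10, per the submitters' processing notes; whether intronic reads were counted is not given in the sources used here. Barcodes numbered 7887, 9370, 11678 and 7524 with 140546094, 141489749, 177753607 and 158323616 gene UMIs (control, Mll3SI, Mll4SI, Mll3/4SI).

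Cells were kept with at least 500 genes, 1000 UMIs and at most 10% mitochondrial UMIs, and the top 0.8% of Scrublet scores per 1000 cells were removed (409, 594, 1001 and 411 cells). Cells above both hashtag thresholds (121 and 324 UMIs, set from the pooled counts after they were seen) still made up 2.28% to 5.59%. The libraries were clustered jointly (10000 UMIs per cell, 2000 variable genes without the members, partners, markers, sex, mitochondrial, ribosomal and haemoglobin genes, 30 components, 15 neighbours, Leiden resolution 1). A cluster was named from 3 or more markers at a log2 fold of 1 or above (10 CPM added), a lead of 2 over the next class and no other class with as many markers among its top 10 genes (50 CPM added), a rule set after the clusters were seen; 5.00% to 13.2% of cells stayed unnamed. Names may differ from those of the study.

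UMIs were summed per library and class as CPM. Intervals are exact Poisson, exact conditional for ratios and exact binomial for shares, at 95%, and cover counting error only. No p-value was computed. Named genes are the members, the partner list, and the 5 genes most like Kmt2c and Kmt2d; other genes are markers or leading genes of clusters. Members and lists were chosen with earlier results of these data known. Positions come from GENCODE M21 (32235 IDs matched). Alternatives covered scaling, filters, doublets, hashtags, cell mix, class, fold, added CPM and resolution; 4 were chosen after seeing the data. The interval and ratio code was tested on simulated data. Software: Python 3.11.15 with scanpy 1.11.5, matplotlib 3.10.9, pandas 2.3.3, igraph 0.11.9, numpy 2.4.6, leidenalg 0.10.2, scikit-learn 1.9.0 and scipy 1.17.1.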

Additional observations from a re-analysis of the deposited data

How the results depend on the processing

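No paired analysis was possible because each group has 1 library and the labels give no replicate numbers, and no replicate could be left out. The number of members past 0.25 moved as follows. Higher in Mll3SI, 1 became 0 with no doublets removed, in Hashtag1 cells, in HSC/MPP-like cells, with 1 CPM added and at a limit of 0.5. Lower in Mll3SI, 0 became 1 with no doublets removed, in Hashtag1 cells and in granulocyte-like cells, and 2 in HSC/MPP-like cells. Higher in Mll4SI, 0 became 2 with median-of-ratios scaling. Lower in Mll4SI, 0 became 2 with every cell weighted alike and with shared clusters weighted as in control, and 1 without cells above both hashtag thresholds, in Hashtag1 cells, in either class and without clusters mostly of a single library. Higher in Mll3/4SI, 1 became 0 with shared clusters, in HSC/MPP-like cells, with 1 CPM added and at 0.5. Lower in Mll3/4SI, 2 became 0 with median-of-ratios scaling, in Hashtag1 cells, with shared clusters and at 0.5, and 4 in HSC/MPP-like cells. The cause was not tested. Pagr1a reversed in HSC/MPP-like cells, to -1.01 in Mll3SI and -1.06 in Mll3/4SI, from 6 and 3 UMIs against 15.

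Over the 14 alternatives of each, the ratio of Kmt2d ranged from -0.48 to -0.13 in Mll4SI and from -0.44 to -0.13 in Mll3/4SI, that of Setd1b in Mll3/4SI from -0.37 to -0.15, that of Kmt2c in Mll3SI from -0.29 to -0.06 and in Mll4SI from -0.07 to 0.31. Of all values checked other than the counts of members, 415 stayed the same and 174 moved without reversing a difference past the limit. A further 2 did reverse, both of them the Pagr1a ratios in HSC/MPP-like cells given above. Values of single genes were judged by their counting interval, and shares of all genes by a fold limit. Removing shared barcodes or the low-UMI clusters, both chosen after seeing the data, moved no value of a member out of its interval. Depth limits Pagr1a, the HSC/MPP-like cells of Mll3/4SI and the granulocyte-like clusters of highest Ltf.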

Other observations

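Cluster 25, which stayed unnamed, had a median of 1582 UMIs per cell, far under its libraries, and in control its 77 cells held Malat1, a nuclear transcript, at 7719 CPM. There Kmt2c was at 353 CPM, Kmt2a at 164 and Kmt2d at 113 in control, each above every named class of that library. No explanation of these levels was tested.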
